A study of Mus musculus with 71 samples.

Results

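The regions described here are the narrow RING1B intervals of mouse embryonic stem cells (ESC) that overlap no called H3K27me3 interval. Of 6326 RING1B intervals listed for ESC, 2688 (42.5%) were under 4000 bp wide and shared no base with an H3K27me3 interval of the same cells, whether called from ChIP or from CUT&RUN. These 2688 members were nearest to 2418 genes. For comparison, 2914 intervals of the same width range did overlap one, and 724 intervals were 4000 bp or wider, 11 of them without H3K27me3. H3K27me3 values in ESC were not used, so "without H3K27me3" below means only that no interval was called. The rule used only width and overlap, and no CBX7 value. The intervals are RING1B peaks, however, so their presence and width depend on RING1B signal, the denominator of the ratio below. What this does to the ratio was not tested.

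All cells derived from the J1 line, grown on a layer of mouse embryonic fibroblasts. They differed in the form of CBX7 they carried. CaPS ESC carried an altered CBX7, into which, per the series title, a domain known from Polycomb proteins of committed cells had been placed, mCaPS ESC carried a further form that the labels used here do not spell out, and WT ESC carried the wild-type form. CBX7 and RING1B were measured by ChIP-seq in CaPS and WT ESC in experiments 1, 2 and 3. RING1B was also measured by ChIP-seq during neural differentiation, by aggregation and retinoic acid, at days 0, 6 and 8 in experiments 3 and 5, at day 8 in experiments 3 and 4, and by CUT&RUN in ESC (CaPS, mCaPS and WT) and in day-10 embryoid bodies (CaPS and WT), with 1 library each. Knockout libraries were not analysed here. No label says whether the libraries of a group were made from separate cultures or clones, so p-values reflect only the variation among these libraries, part of which may be technical.

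RING1B is the ubiquitin ligase of Polycomb repressive complex 1 (PRC1). Canonical PRC1 contains a CBX protein such as CBX7, whose chromodomain binds H3K27me3, the methylation that PRC2 deposits. Variant PRC1 contains RYBP or YAF2 in place of a CBX protein and reaches CpG-rich promoters through other DNA-binding subunits, such as KDM2B, or MGA with MAX and E2F6 in the variant complex PRC1.6, which is known in mouse ESC for repressing genes of the germ line.

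Values are tags per 10000000 tags of a library, and 3 values always follow the order of experiments 1, 2 and 3. The 12 ESC ChIP libraries held between 2.23 and 49.13 M tags, and the median member rested on 1.5 to 38 tags in a library. Both libraries of CaPS experiment 2 were the shallowest, with fewer than 3 tags at 73.7% of members for CBX7 and at 49.6% for RING1B. The WT RING1B library of experiment 2 stood apart from the rest: medians over members were 7.5, 13.5 and 14.03 in the CaPS libraries and 7.05, 39.1 and 10.4 in the WT libraries. For this reason the ratio calls named below are also given without experiment 2. With chromatin data alone, the labelled cell type was looked at only through RING1B: the 6 neural progenitor marker genes all had an interval of 4000 bp or wider in ESC, while 3 of 8 ESC marker genes and 6 of 9 fibroblast marker genes had any RING1B interval.

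The sequences below are from promoters that members overlap; most of the Man1c1 stretch lies outside its member. They are shown because the results turn on the CBX7 to RING1B ratio, and these promoters lie at both ends of it. All are read 5′ to 3′ on the strand of the gene, from RefSeq on GRCm38.p6 (mm10), upstream of the annotated start. Capitals mark a match to 1 of 3 motifs searched on both strands: the E-box CACGTG, bound by MAX dimers, the E2F motif GCGGGAA, and the ETS motif CCGGAAG. Members near Stag3, Hsf2bp and Cops7a had low CBX7 for their RING1B, though Hsf2bp did not pass without experiment 2. Members near Slc38a9, Mga and Aebp2 also had low ratios, of -2.61, -1.81 and -0.92. Their stretches of 250 bases hold none of the 3 motifs and are not shown, so the choice of sequences does not link motif and ratio. For Stag3, Hsf2bp and Cops7a, 30 bases around the motif are given, which starts at position -170, -50 and -19 from the gene start.
Stag3, chr5:138280327-138280356, plus strand: cgcgctggagccCACGTGacaggactgcac
Hsf2bp, chr17:32034541-32034570, minus strand: ggcatcttaagaTTCCCGCgtttttgtgtg
Cops7a, chr6:124965514-124965543, minus strand: gcggaagtacggCCGGAAGctggccataga
The promoters of Ehhadh and Man1c1 are shown as a contrast: the member at Ehhadh had a ratio among the lowest and that at Man1c1 a ratio among the highest, and neither stretch of 250 bases holds any of the 3. The Ehhadh stretch has 12 CpG and the Man1c1 stretch 24.
Ehhadh, chr16:21787835-21788084, minus strand: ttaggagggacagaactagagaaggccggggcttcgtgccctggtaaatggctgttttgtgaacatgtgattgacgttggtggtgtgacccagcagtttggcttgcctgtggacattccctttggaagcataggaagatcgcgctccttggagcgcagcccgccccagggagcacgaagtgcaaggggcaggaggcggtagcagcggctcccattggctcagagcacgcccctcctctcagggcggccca
Man1c1, chr4:134704291-134704540, minus strand: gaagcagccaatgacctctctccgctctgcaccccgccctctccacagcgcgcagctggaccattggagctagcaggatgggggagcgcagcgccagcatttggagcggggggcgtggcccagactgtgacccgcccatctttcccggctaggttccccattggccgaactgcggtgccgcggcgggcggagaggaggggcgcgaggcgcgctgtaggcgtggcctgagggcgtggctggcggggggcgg
Terb1, a germ-cell gene whose member fell in between, has an ETS match and 13 CpG.
Terb1, chr8:104509888-104510137, minus strand: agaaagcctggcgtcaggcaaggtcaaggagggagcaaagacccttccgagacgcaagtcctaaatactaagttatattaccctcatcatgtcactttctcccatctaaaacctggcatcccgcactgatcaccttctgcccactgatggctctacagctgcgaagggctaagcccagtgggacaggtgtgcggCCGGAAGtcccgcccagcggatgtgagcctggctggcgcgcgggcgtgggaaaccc

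Members were short and close to genes. Their median width was 651 bp (quartiles 499 and 950 bp), against 1533 bp for intervals under 4 kb with H3K27me3, and 2590 of them were under 2000 bp. The authors' annotation placed 39.6% of members in the promoter-TSS class, 30.4% in introns, 12.4% in exons and 10.3% between genes, against 26.5%, 37.6%, 16.4% and 7.0% of narrow intervals with H3K27me3. The share within 1 kb of a start was 72.0% and 72.5% in the same order. Most members were nearest a protein-coding gene (91.3%). Most were away from H3K27me3: 2060 lay at least 5 kb from any H3K27me3 interval, and 215 of the 2418 genes also had an interval with H3K27me3. In all, 231 genes had 2 or more members, with 6 at Rn4.5s and 4 each at Cdk6, Rusc1 and Usp44.

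Families of developmental regulators were rare among members. No member was assigned to a Hox gene. Of 55 developmental transcription factor genes with any RING1B interval, 3 had a member and 54 had an interval with H3K27me3. The 3 were weak sites at Eya1 (WT RING1B 9.88, 40.1 and 9.12), Tfap2b (8.46, 16.2 and 10.7) and Eomes (10.6, 7.63 and 9.39). Germ-cell and meiosis genes were spread more evenly, with 25 of the 45 genes that had an interval carrying a member and 20 an interval with H3K27me3. Zinc finger genes named Zfp gave 53 members (1.97%) and 23 narrow intervals with H3K27me3 (0.79%), while solute carrier genes gave 50 (1.86%) and 78 (2.68%).

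RefSeq promoter windows of 300 bases (250 before to 50 after the start) overlapped 1116 members (41.5%) through 1429 windows. The E-box CACGTG was in 15.7% of these windows, the E2F motif GCGGGAA in 11.9% and the ETS motif CCGGAAG in 18.0%. In the 1740 windows of narrow intervals with H3K27me3 the shares were 9.2%, 9.8% and 4.5%, and in all 32817 windows of the genome 7.1%, 4.6% and 8.9%. The GC box GGGCGG was in 66.1% of member windows and 65.9% of windows with H3K27me3, against 35.6% of all windows. GC content was 62.3% and 64.7% at the median for the 2 classes, against 52.7% for all, and the median ratio of observed to expected CpG was 0.77, 0.71 and 0.38. These shares describe letters in the windows, with both strands searched, and say nothing about which factors were bound.

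The median CBX7 to RING1B ratio of members lay below that of the other intervals. The ratio was log2(CBX7 + 1) minus log2(RING1B + 1) within an experiment, centred on its median over all 6326 intervals, because its absolute level depends on the antibodies. In WT ESC the median ratio was -0.56 over members, against 0.16 over narrow intervals with H3K27me3 and 0.34 over intervals of 4000 bp or wider. By experiment, the median over members was -0.32, -0.56 and -0.21 in CaPS ESC and -0.37, -1.15 and -0.20 in WT ESC, so that it was below the centre in all 6 pairs of libraries. The ratio lay below the median of all intervals in all 3 WT pairs at 1063 members (39.5%), against 21.8% of all intervals and 10.7% of narrow intervals with H3K27me3.

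**Figure D1:**
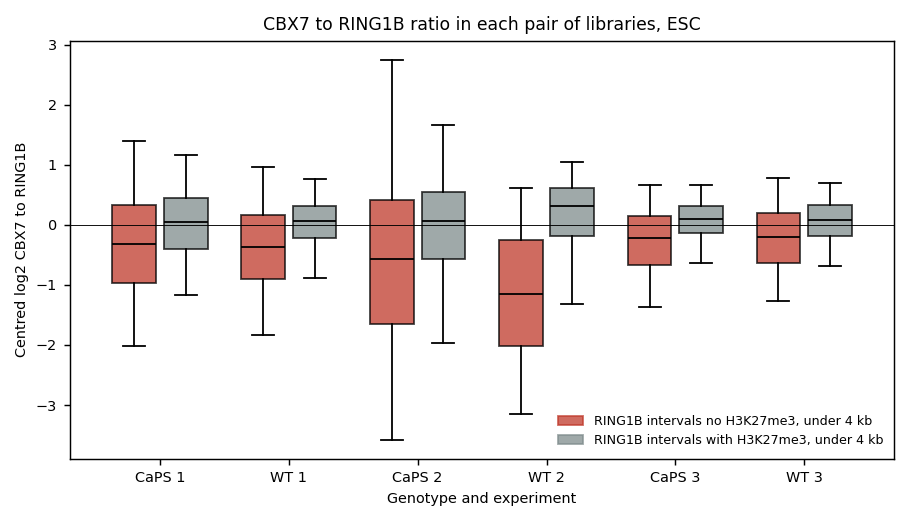
Centred log2 ratio of CBX7 to RING1B (vertical axis) in each pair of libraries from 1 genotype and experiment (horizontal axis), for 2688 members (red, left of each pair) and 2914 narrow intervals with H3K27me3 (grey). Boxes show quartiles with the median, and whiskers reach the 5th and 95th percentiles; the member median is below 0 in all 6 pairs and lowest, at -1.15, in WT experiment 2.

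Tested interval by interval with limma (WT ESC, 3 pairs, Benjamini-Hochberg over all 6326 intervals, adjusted p under 0.05), 211 members (7.85%) had a low ratio and 2 (0.0744%) a high one. Over all intervals 4.03% were low and 0.253% high, and among narrow intervals with H3K27me3 43 of 2914 were low. Since RING1B is the denominator of the ratio, levels were matched in the WT ESC library of experiment 5, which the ratio does not use, over intervals with a time-course peak; this matching was chosen after the values were seen. Where that library had 40 to 80, the median ratio was -0.64 over 454 members and 0.15 over 776 narrow intervals with H3K27me3, and 16.7% and 1.9% were called low. Without experiment 2 the medians were -0.35 and 0.10, and the shares 3.3% and 0.5%. At 80 or more, the medians were -0.28 over 242 members and 0.25 over 1039 such intervals, and -0.21 and 0.12 without experiment 2.

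The number of low calls rested on experiment 2. Without it 40 members were called low, 39 of them among the 211, against 0.838% of all intervals; the member median was then -0.29, and 0.08 for narrow intervals with H3K27me3. With a pseudocount of 5 there were 93 low calls, and with CBX7 and RING1B as unpaired groups there were none among members, by limma. The 40 were mostly promoter sites, 28 of them (70.0%) in the promoter-TSS class. Those with the smallest adjusted p without experiment 2, named after their values were seen, were Gm17399 (-2.07, adjusted p = 2.44e-07), Cops7a (-1.42, adjusted p = 4.28e-05), Ugp2 (-1.97, adjusted p = 0.000442), Stag3 (-1.50, adjusted p = 0.000605) and Usp47 (-1.81, adjusted p = 0.00068), by limma. Fam208a, which encodes TASOR of the HUSH silencing complex, and its relative Fam208b were also among the 40.

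**Figure D2:**
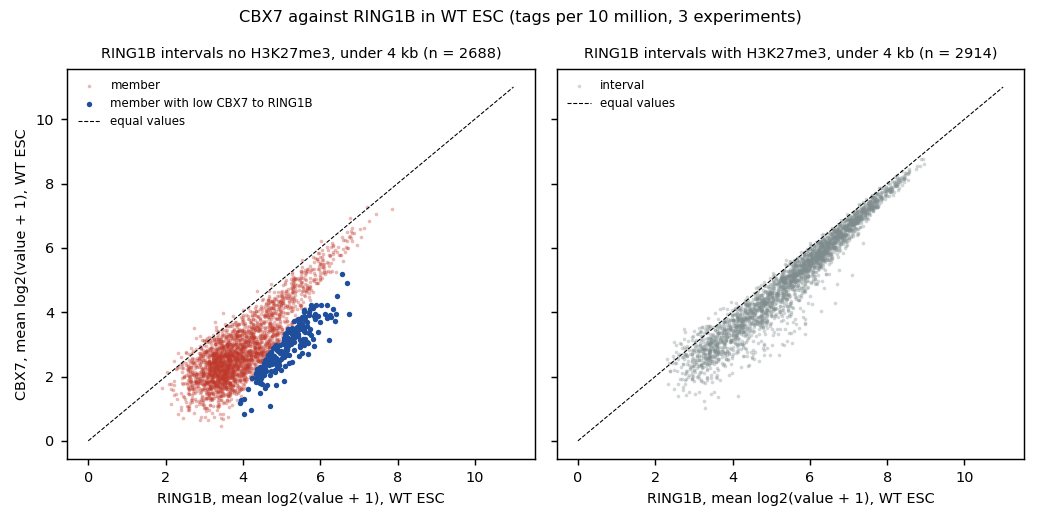
Mean log2(value + 1) of CBX7 (vertical) against RING1B (horizontal) over 3 WT experiments, for members (left panel) and narrow intervals with H3K27me3 (right panel), 1 point an interval. The 211 members called low in ratio (blue) lie below the main cloud at intermediate to high RING1B, and the dashed line marks equal values.

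Cops7a encodes a subunit of the COP9 signalosome, and its member (chr6:124964260-124966051, annotated to an intron near the start) was among the 5 with the highest mean WT RING1B. RING1B was 30.9, 56.2 and 88.03 in CaPS ESC and 45.1, 433 and 60.5 in WT ESC. CBX7 was 1.99, 34.2 and 12.5 in CaPS ESC and 12.9, 17.1 and 13.3 in WT ESC. The ratio lay below the median of all intervals in all 3 WT pairs (centred log2 ratio of -2.21, SE 0.28, limma adjusted p = 3.36e-07). Stag3, a meiosis-specific cohesin subunit, had a member at its promoter (chr5:138279792-138281343): RING1B was 24.4, 92.1 and 124 in CaPS ESC and 21.2, 408 and 68.3 in WT ESC. CBX7 there was 5.97, 19.01 and 7.73 in CaPS ESC and 7.23, 36.7 and 10.8 in WT ESC. Again the ratio was below the median of all intervals in all 3 WT pairs (centred log2 ratio of -1.88, SE 0.27, limma adjusted p = 3.86e-06). At Mga, which encodes the scaffold of PRC1.6, the member (chr2:119896187-119898555) had RING1B of 29.99, 103 and 129 in CaPS ESC and 18.3, 341 and 68.8 in WT ESC. CBX7 was 7.96, 9.51 and 15.8 in CaPS ESC and 6.85, 24.4 and 14.4 in WT ESC (centred log2 ratio of -1.81, SE 0.28, limma adjusted p = 1.98e-05), and the genotypes overlapped for both proteins. Without experiment 2 the ratio at Mga was -1.24 (limma adjusted p = 0.00632).

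Among members with RING1B at or above the members' median, the 5 lowest ratios belonged to Smarcd2, a SWI/SNF subunit gene, the site with the nearest-gene symbol Mir3569, annotated to the promoter of another transcript, Slc38a9, an amino acid transporter of the lysosome, Jakmip1 and Ehhadh, a peroxisomal enzyme of fatty acid oxidation. Their centred ratios in WT ESC ran between -3.04 (Smarcd2) and -2.53 (Ehhadh), with limma adjusted p between 0.000113 and 0.0177. In CaPS ESC the ratio was higher at all 5, by 1.00 at Smarcd2, 1.97 at Ehhadh and 2.94 at Slc38a9. No such difference passed (limma adjusted p = 0.943), and the comparison shares the WT libraries with the choice of these members. At Ehhadh, CBX7 was 4.48, 7.6 and 5.29 in CaPS ESC and 0, 4.89 and 5.37 in WT ESC, and RING1B was 8.43, 17.97 and 24.7 in CaPS ESC and 13.4, 72.5 and 22.4 in WT ESC. Of these CBX7 values, those of CaPS experiments 1 and 3 and WT experiment 3 lay above the floor of 3 tags, and the others at or below it. Without experiment 2 the limma call was kept at Ehhadh (-2.36, adjusted p = 0.00335), Slc38a9 (-2.29, adjusted p = 0.0059) and Smarcd2 (-1.87, adjusted p = 0.0317) and lost at Mir3569 (-1.65, adjusted p = 0.181) and Jakmip1 (-1.45, adjusted p = 0.239).

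High ratios were found at other members. The highest 5 in the same set were Elf2, an ETS-family factor gene, Mycl, which encodes L-MYC, Man1c1, a Golgi mannosidase gene, Efna2, an ephrin gene, and Msi1, which encodes an RNA-binding protein of the Musashi family. At Man1c1 (chr4:134702111-134704385) CBX7 was 32.8, 79.9 and 25.4 in CaPS ESC and 110.4, 213 and 73.5 in WT ESC. RING1B was 46.9, 106 and 43.2 in CaPS ESC and 107, 245 and 47.97 in WT ESC. The ratio lay above the median of all intervals in all 3 WT pairs (centred log2 ratio of 0.74, SE 0.20, limma adjusted p = 0.0203). At Mycl (chr4:122996062-122997540) CBX7 was 10.95, 39.9 and 20.9 in CaPS ESC and 46.8, 174 and 46.95 in WT ESC, and RING1B was 24.4, 71.9 and 33.4 in CaPS ESC and 29.6, 209.9 and 42.2 in WT ESC (centred log2 ratio of 0.77, SE 0.21, limma adjusted p = 0.0205). Man1c1 and Mycl were the 2 members called high, and both kept that call without experiment 2 (limma adjusted p = 0.000605 and 0.00459) and lost it without experiment 3 (limma adjusted p = 0.484 and 0.216), as did Mycl without experiment 1 (limma adjusted p = 0.191). The other 3 did not pass, with ratios of 0.87 (Elf2), 0.72 (Efna2) and 0.70 (Msi1).

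As a description with no test, 62.6% of the 211 low-ratio members and 37.7% of the other 2477 were in the promoter-TSS class, and 88.6% and 70.6% lay within 1 kb of a start. Their median widths were 1128 and 636 bp. In their promoter windows the E-box was in 22% against 14.6%, the E2F motif in 17.2% against 11%, and the ETS motif in 22.5% against 17.2%, with the GC box at 64.6% and 66.4%. For members with RING1B at or above the members' median and not called low, these shares were 14.5%, 11.2%, 15.9% and 68.8%. Position and width were not matched for RING1B level, and few weak members could be called low. Since the ratio contains the RING1B value, their RING1B level was read from libraries outside the test. In the WT ESC library of experiment 5 the median was 51.3 at the 195 low-ratio members with a time-course peak, 34.8 at the other members with RING1B at or above the members' median and 62.3 at narrow intervals with H3K27me3. In WT ESC CUT&RUN it was 42.7, 31.2 and 40.6. The low-ratio members had medians above those of the other strong members in both, and 95.3% of them overlapped a CUT&RUN RING1B peak, against 72.6% of the other members and 87.4% of those with RING1B at or above the members' median.

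Among 8 gene lists, germ-cell and meiosis genes had the lowest median ratio with all experiments and housekeeping genes the lowest without experiment 2. The 26 germ-cell members had a median centred ratio of -1.01, against -0.56 over all members, and of -0.52 without experiment 2, against -0.29. Of the 26, 6 (23.1%) were called low, against 7.85% of all members and 4.03% of all intervals. They were Stag3, Piwil2, a PIWI protein of the piRNA pathway, Hsf2bp, a meiotic recombination factor, the testis bromodomain gene Brdt, Tdrd12 and Tex19.1. Hsf2bp had RING1B of 11.3, 35.9 and 54.99 in CaPS ESC and 7.76, 114 and 35.98 in WT ESC, and CBX7 of 7.96, 1.9 and 8.14 in CaPS ESC and 8.38, 4.89 and 8.49 in WT ESC (centred log2 ratio of -1.45, SE 0.42, limma adjusted p = 0.0291). Piwil2 had RING1B of 28.1, 53.9 and 45.8 in CaPS ESC and 14.1, 166 and 37.8 in WT ESC, and CBX7 of 1.99, 7.6 and 5.09 in CaPS ESC and 7.61, 16.3 and 11.9 in WT ESC (centred log2 ratio of -1.30, SE 0.32, limma adjusted p = 0.00891). In both, WT RING1B of experiment 2 was far above the other WT libraries, and the call did not hold without it (limma adjusted p = 0.685 and 0.331). Of the 6, Stag3 alone kept its call without experiment 2. Terb1, which tethers meiotic telomeres, was not called, at -0.79 (limma adjusted p = 0.2), and stood at 0.11 without experiment 2.

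Of the Polycomb list, 8 genes had 12 members with a median ratio of -0.55. Of these members 2 (16.7%) were called low, where all members had 7.85% and all intervals 4.03%. They were Mga and Aebp2, a PRC2 cofactor (centred log2 ratio of -0.92, SE 0.27, limma adjusted p = 0.0341; without experiment 2 -0.73, limma adjusted p = 0.22). Kdm2b, the CpG-binding subunit of a variant PRC1, was not called, with centred log2 ratio of 0.24, SE 0.26, limma adjusted p = 0.613. The pluripotency list had 7 members with a median of -0.71, of which 1 (14.3%), at Utf1, was called low (centred log2 ratio of -1.02, SE 0.31, limma adjusted p = 0.0483; without experiment 2 -0.74, limma adjusted p = 0.316). The medians were -0.96 over 3 housekeeping members, -0.34 over 14 Wnt-pathway members, -0.22 over 11 cell-cycle members, -0.01 over 3 developmental factor members and 0.00 over 2 fibroblast members, with no member called in these lists. Without experiment 2 the list medians were -0.67 for housekeeping, -0.36 for pluripotency, -0.30 for Polycomb, -0.28 for Wnt, -0.01 for cell-cycle, 0.11 for developmental factor and 0.25 for fibroblast members, and Mga was the 1 member of these lists called low.

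The member at Cbx2, a paralogue of CBX7 in PRC1, was among the 5 with the highest RING1B. It lies in exon 5 of the gene (chr11:119027603-119028745). RING1B was 565, 449 and 24.7 in CaPS ESC and 444, 161 and 44.1 in WT ESC, and CBX7 was 624, 202 and 37.4 in CaPS ESC and 372, 374 and 25.2 in WT ESC. Within each genotype the values varied widely between experiments, the genotypes overlapped, and no RING1B CUT&RUN peak of ESC covered it. The ratio did not pass (0.65, limma adjusted p = 0.0833) and was -0.02 without experiment 2.

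Lower CBX7 in CaPS ESC was called at a minority of members. By limma with experiment as block, 328 members (12.2%) had lower CBX7 in CaPS ESC and 4 (0.149%) had higher CBX7, where over all 6326 intervals 44.3% were lower and 0.0632% higher. Among narrow intervals with H3K27me3, 61.7% were lower. The median log2 difference was -0.47 over members and -0.99 over those intervals. By experiment it was -0.40, -0.83 and -0.08 over members, against -1.11, -1.21 and -0.63. All 3 pairs had lower CBX7 in CaPS at 871 members (32.4%), against 60.9% of all intervals. Where RING1B in the WT ESC library of experiment 5 was 80 or more, 32.6% of members and 81.7% of narrow intervals with H3K27me3 were called lower, with medians of -0.62 and -1.13, and between 40 and 80 the shares were 18.5% and 68.9%. Where the mean WT RING1B of experiments 1 to 3 was 80 or more, the shares were 59.4% of 106 members and 93.0% of 1071 such intervals. CBX7 itself was low at members, with WT medians of 3.81, 8.96 and 4.81, against 25.1, 58.7 and 23.2 at narrow intervals with H3K27me3. Its level was not matched, and how far low counts limited the calls at members was not tested.

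**Figure D3:**
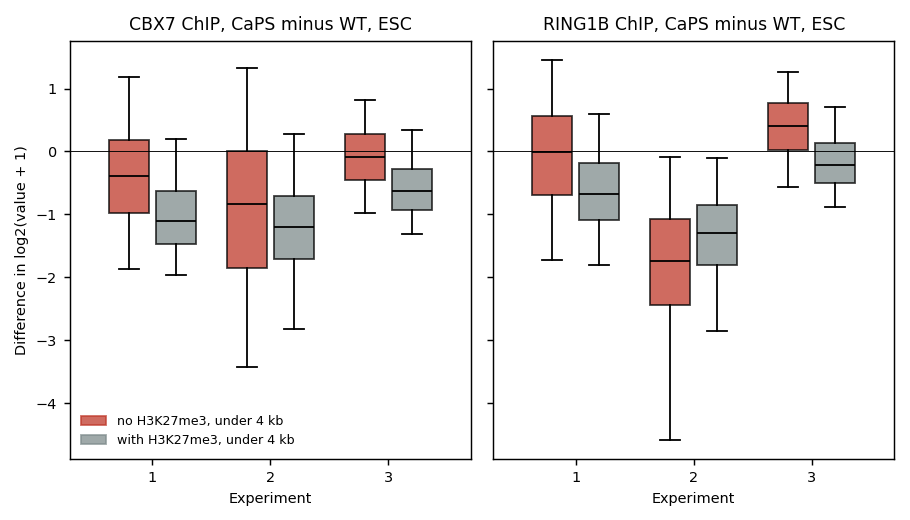
Log2(value + 1) in CaPS minus WT ESC (vertical) for CBX7 (left) and RING1B (right) in each experiment (horizontal), for members (red) and narrow intervals with H3K27me3 (grey). Boxes show quartiles with the median, and whiskers the 5th and 95th percentiles; for CBX7 the member median is closer to 0 than that of the other class in all 3 experiments, and for RING1B it is -1.74 in experiment 2 and 0.40 in experiment 3.

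Without experiment 1 there were 119 lower calls and without experiment 2 there were 175, of which 116 and 141 were among the 328. Without the block 1 member was called. EdgeR gave 221 (8.22%), against 40.1% of all intervals, and DESeq2 168 (6.25%), against 37.8%. The direction depends on the scaling: with every library brought to the same sum over the intervals, 3 members were called lower and 24 higher, against 103 and 81 of all 6326 intervals. The medians were then 0.39 over members, 0.11 over all intervals and 0.00 over narrow intervals with H3K27me3. On the deposited scale these medians were -0.47, -0.85 and -0.99. An even loss of CBX7 and a smaller share of tags inside peaks cannot be told apart in such values.

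The 5 members with the smallest p for lower CBX7 were 3930402G23Rik, Shb, an SH2-domain adaptor gene, Has3, a hyaluronan synthase gene, Efs, a docking protein gene of Src-family signalling, and Ccdc136. At Shb (chr4:45528291-45530144) CBX7 was 10.5, 30.4 and 20.5 in CaPS ESC and 57.9, 148 and 47.5 in WT ESC (log2 difference of -1.93, SE 0.31, limma adjusted p = 5.29e-08). Every CaPS value there was below every WT value. At Efs (chr14:54924738-54928269) CBX7 was 17.9, 38.02 and 35.2 in CaPS ESC and 53.3, 195 and 90.5 in WT ESC (log2 difference of -1.73, SE 0.29, limma adjusted p = 1.97e-07), again with no overlap. Has3 (chr8:106870058-106870978) had CBX7 of 3.98, 0 and 7.23 in CaPS ESC and 22.8, 41.6 and 13.9 in WT ESC (log2 difference of -2.84, SE 0.46, limma adjusted p = 1.07e-07), and was the 1 member still called without the block. The differences at 3930402G23Rik and Ccdc136 were -2.12 and -1.87 (limma adjusted p = 3.59e-08 and 2.28e-07). All 5 were lower in 3 of 3 pairs, and all 5 kept their call when any 1 experiment was left out, while DESeq2 did not call 3930402G23Rik (adjusted p = 0.0945). With libraries brought to the same sum, Shb (-0.92, adjusted p = 0.03) and Has3 (-1.89, adjusted p = 0.0364) kept the limma call.

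Of the 5 members with the highest RING1B, 3 had lower CBX7 in CaPS, at Gm16136, Sall2 and Efs. At the non-coding gene Gm16136 (chr15:37231511-37235439, width 3929 bp), the member with the highest mean WT RING1B, CBX7 was 28.9, 93.2 and 56.9 in CaPS ESC and 80.3, 303 and 128 in WT ESC (log2 difference of -1.43, SE 0.27, limma adjusted p = 4.48e-06). At Sall2, which encodes a zinc-finger factor (chr14:52313334-52317158), CBX7 was 34.3, 116 and 46.3 in CaPS ESC and 89.1, 248.5 and 104 in WT ESC (log2 difference of -1.20, SE 0.27, limma adjusted p = 0.000109). In both, each CaPS value was below the WT value of its experiment. Cops7a (-0.45, limma adjusted p = 0.394; without experiment 2 -1.15, limma adjusted p = 0.0235) and Cbx2 (0.14, limma adjusted p = 0.721) were not called. The 211 low-ratio members had 15 lower calls and 1 higher, with a median of -0.30, against 313 lower and 3 higher calls and a median of -0.49 among the other 2477. These counts share the WT CBX7 libraries with the ratio that chose the members, and so do the values at the 2 members called high in ratio; both are given as a description. Those 2 had lower CBX7 in CaPS, Mycl with a log2 difference of -1.74, SE 0.30, limma adjusted p = 4.89e-07, and Man1c1 with a log2 difference of -1.54, SE 0.28, limma adjusted p = 1.43e-06.

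All 4 intervals of the table with higher CBX7 in CaPS were members, namely those at Prss41, a serine protease gene, Trim11, a ubiquitin ligase gene, Jakmip1 and Pnldc1, the exonuclease that trims piRNA ends. Their CBX7 was low in absolute terms. At Prss41 (chr17:23843522-23844154) it was 8.46, 19.01 and 4.88 in CaPS ESC and 0.76, 0 and 1.7 in WT ESC (log2 difference of 2.62, SE 0.66, limma adjusted p = 0.00043), and at Pnldc1 it was 9.45, 20.9 and 4.17 in CaPS ESC and 3.81, 4.89 and 2.26 in WT ESC (log2 difference of 1.23, SE 0.52, limma adjusted p = 0.0429). The WT values at Prss41 lie at or below the floor that 3 tags set in each WT library. Each call was lost when at least 1 experiment was left out, without experiment 1 in all 4 (limma adjusted p between 0.0516 and 0.273), and edgeR kept Prss41 and Trim11 (adjusted p = 0.000941 and 0.00533). In the single CUT&RUN libraries RING1B at Prss41 was 16.3 in CaPS and 19.6 in WT ESC.

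**Figure D4:**
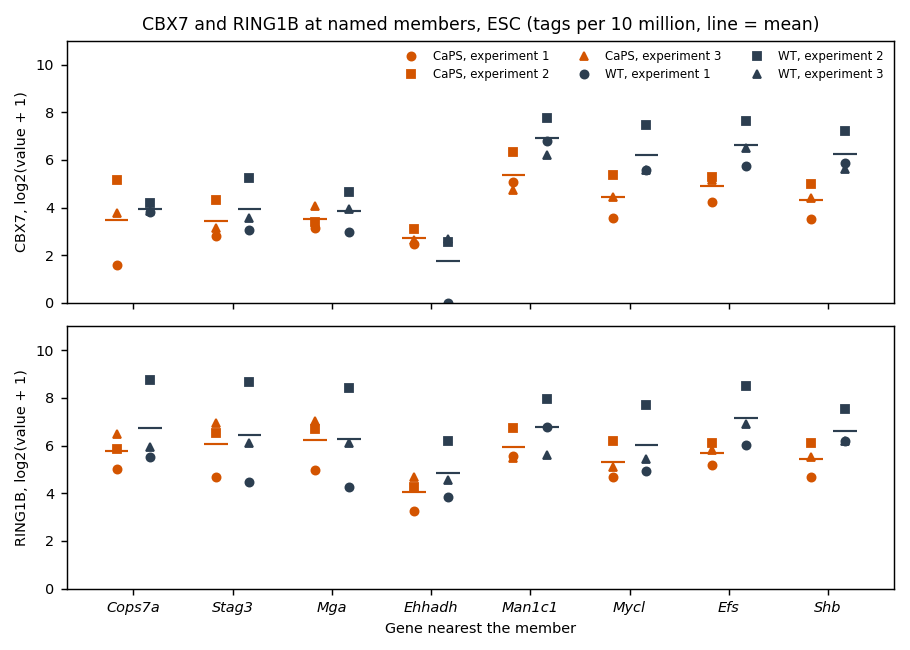
Log2(value + 1) of CBX7 (top) and RING1B (bottom) at 8 named members, with CaPS (orange) left of WT (dark) and the mean as a line; marker shape gives the experiment. At Cops7a, Stag3, Mga and Ehhadh CBX7 is below RING1B in each experiment of both genotypes, and at Man1c1, Mycl, Efs and Shb CBX7 is lower in CaPS in each experiment. The level of CBX7 against RING1B depends on the antibodies.

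By gene list, 4 of 26 germ-cell members (15.4%) had lower CBX7 in CaPS, at Msh5, Prdm1, Piwil2 and Terb2, with a list median of -0.32. All members had 12.2% and -0.47, and all intervals 44.3% and -0.85. Piwil2 (limma adjusted p = 0.0316) lost the call without experiment 1 or 3 (limma adjusted p = 0.215 and 0.139), Msh5 without experiment 1 and Terb2 without experiment 1 or 2, so that Prdm1 alone kept it throughout. The 2 fibroblast members, at Vim and Col1a2, were both lower. Vim, the intermediate filament gene, had CBX7 of 10.95, 26.6 and 20.8 in CaPS ESC and 47.6, 61.9 and 33.1 in WT ESC (log2 difference of -1.29, SE 0.32, limma adjusted p = 0.000372), with every CaPS value below every WT value, and Col1a2, a collagen gene, had a log2 difference of -0.93, SE 0.41, limma adjusted p = 0.0494. Without experiment 1 neither passed (limma adjusted p = 0.117 at Vim and 0.262 at Col1a2), nor did Col1a2 without experiment 2 (0.186). Feeder fibroblasts were present in the culture, and their part in these 2 values was not tested. Cdkn1a and Cdkn1b, which encode the cell-cycle inhibitors p21 and p27, were lower as 2 of 11 cell-cycle members; Cdkn1a had a log2 difference of -0.99, SE 0.34, limma adjusted p = 0.0108, and this was lost without experiment 2 (limma adjusted p = 0.808), as the call at Cdkn1b was without experiment 1 or 2. Fzd7, a Wnt receptor gene, was the 1 of 14 Wnt members (log2 difference of -1.15, SE 0.41, limma adjusted p = 0.0145), and Aebp2 the 1 of 12 Polycomb members (log2 difference of -1.39, SE 0.42, limma adjusted p = 0.00363). Without experiment 2 neither passed (limma adjusted p = 0.253 at Fzd7 and 0.0563 at Aebp2), nor did Fzd7 without experiment 1 (0.0614). No member of the pluripotency, developmental factor or housekeeping lists was called in either direction.

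The share of lower calls varied between chromosomes, from 3.8% of members on chromosome 13 to 24.2% of 62 members on the X chromosome, with 23.3% on chromosome 6, 20.2% on 14, 17% on 4 and 14.8% on 8. Without chromosomes 6, 8 and 14, chosen after the values were seen, 230 members were called lower and 4 higher. The median CBX7 difference was -0.61 at members on these chromosomes and -0.44 at the other members.

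No member differed in RING1B between CaPS and WT ESC by limma, and over all intervals 0.142% were lower. At an unadjusted p under 0.05, 99 members were lower and none higher, against 1174 lower of all 6326 intervals. At the adjusted threshold edgeR called no member, against 0.079% of all intervals. DESeq2 called 17 members lower (0.632%), against 11.4% of all intervals. The median difference was -0.49, but by experiment it was 0.00, -1.74 and 0.40, so that experiments 2 and 3 lay on opposite sides. Without experiment 2 the median was 0.18, and with libraries brought to the same sum it was 0.23, against 0.07 over all intervals, so a general direction cannot be given. The 5 members with the smallest p were at Aff1, a gene of the super elongation complex, A330074K22Rik, Sema5a, a semaphorin gene, Efs and Zfp608. At Aff1 (chr5:103753173-103756464) RING1B was 17.8, 8.98 and 37.8 in CaPS ESC and 40.2, 159 and 73.3 in WT ESC (log2 difference of -2.02, SE 0.54, limma adjusted p = 0.0576), and at Efs it was 35.6, 67.4 and 55.7 in CaPS ESC and 64.2, 359.7 and 118 in WT ESC (log2 difference of -1.43, SE 0.45, limma adjusted p = 0.104). All 5 were lower in CaPS in each of 3 pairs. Toward higher RING1B the smallest p was at Pigm, a gene of GPI-anchor synthesis, with 7.5, 20.2 and 13.3 in CaPS ESC and 0, 19.08 and 6.78 in WT ESC (limma adjusted p = 0.407), where the genotypes overlapped.

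The difference between CaPS and WT in the CBX7 to RING1B ratio passed at no interval, by limma. At an unadjusted p under 0.05, 35 of 2688 members were lower and 88 higher, against 135 and 129 of all 6326 intervals. The median over members was 0.17, and -0.09 over narrow intervals with H3K27me3. At the 211 low-ratio members it was 0.37, in a comparison that shares the WT libraries with the call that chose them.

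RING1B CUT&RUN in ESC, with 1 library a genotype and therefore no test, gave lower medians in both altered forms, at member peaks and over all peaks. Over 1800 CUT&RUN peaks that overlapped members and no other ESC RING1B interval, the median was 16.8 in CaPS, 13.2 in mCaPS and 25.9 in WT ESC. CaPS was below WT by more than 2-fold at 347 of these peaks (19.3%), against 22.5% of all CUT&RUN peaks, and mCaPS was below WT at 714 (39.7%), against 44.9%. The median log2 difference was -0.55 for CaPS and -0.88 for mCaPS over member peaks, and -0.80 and -1.13 over peaks of narrow intervals with H3K27me3. Over all CUT&RUN peaks it was -0.62 and -0.93. The share of tags inside peaks was 3.01% in CaPS, 2.07% in mCaPS and 4.61% in WT. Lower RING1B at members and a smaller share of tags inside peaks cannot be told apart in such values. At Cops7a the values were 45.0 in CaPS, 30.4 in mCaPS and 76.7 in WT, a ratio of 0.586 for CaPS to WT (95% exact interval 0.419 to 0.814) and of 0.397 for mCaPS to WT (0.262 to 0.573). At Stag3 they were 73.7, 52.9 and 94.6, with ratios of 0.779 (0.599 to 1.02) and 0.56 (0.412 to 0.756). The intervals cover counting error only.

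Of the 2688 members, 1999 (74.4%) overlapped a CUT&RUN RING1B peak of ESC, and 1139 (42.4%) a CUT&RUN peak of day-10 embryoid bodies, against 88.5% and 56.1% of narrow intervals with H3K27me3. Of the low-ratio members, 77.3% overlapped a peak of the embryoid bodies, against 39.4% of the other members. The RING1B level in ESC, which was higher at the low-ratio members, was not matched in this comparison. The single day-10 libraries had medians of 17.1 in CaPS and 15.9 in WT over 1078 peaks of members, and a median log2 difference of 0.14.

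During neural differentiation, the share of member peaks with lower RING1B was close to that of all peaks. In the time course 1929 members (71.8%) overlapped a peak, and 1828 peaks touched a member. In CaPS cells 284 of these (15.5%) were lower at day 8 than in ESC and 26 (1.42%) higher, by limma, against 14.1% and 1.63% of all 15091 peaks. In WT cells 397 (21.7%) were lower and 19 (1.04%) higher, against 20.9% and 1.73%. The median log2 difference over member peaks was -0.65 in CaPS and -0.79 in WT. Among peaks of narrow intervals with H3K27me3, 34.5% were lower in CaPS and 61.0% in WT. Whether the change over time differed between genotypes was not tested here. Without the block the lower calls were 136 in CaPS and 225 in WT. With libraries brought to the same sum, the CaPS split was 74 lower and 107 higher, against 810 and 766 of all 15091 peaks. The WT split was 45 lower and 161 higher, against 857 and 1351. The medians were 0.01 in CaPS (0.13 over all peaks) and 0.28 in WT (0.36 over all peaks), so a general direction cannot be given.

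Split by ratio, 68 of 195 peaks at low-ratio members (34.9%) were lower in CaPS, against 216 of 1632 (13.2%) at the other members. In WT, 71 of the 195 (36.4%) were lower and 1 higher, against 326 of 1632 (20.0%) lower and 18 higher. The difference between the 2 sets was not tested, the WT ESC library of experiment 3 is also 1 of those that set the ratio, and the RING1B level in ESC, which also differed between them, was not matched.

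The named peaks below overlap members and no other ESC interval, and the 2 values at each day are experiments 3 and 5. Their differences are on the deposited scale, and no same-sum value is given here for single peaks. The peak at Sall2 (chr14:52313336-52317548) had 101 and 101 at day 0, 42.02 and 74.3 at day 6 and 41.2 and 59.7 at day 8 in CaPS, and 204 and 203 at day 0, 37.6 and 39.9 at day 6 and 27.5 and 41.1 at day 8 in WT. It fell in both genotypes (log2 difference of day 8 from ESC -1.01 in CaPS and -2.56 in WT, limma adjusted p = 0.0451 and 6.61e-10). At Tex12, a gene of the synaptonemal complex (chr9:50560708-50561943), the values were 51.3 and 22.7 at day 0, 9.29 and 14.5 at day 6 and 5.13 and 7.83 at day 8 in CaPS, and 35.2 and 49.5 at day 0, 16.6 and 19.9 at day 6 and 7.2 and 0.81 at day 8 in WT (-2.26 and -3.47, limma adjusted p = 0.00118 and 4.07e-08). Its member was among the 40 called low in ratio without experiment 2. The testis-family gene Spata31d1d, the potassium channel gene Kcnj9 and the site at Gm26876, whose member is annotated to Ikzf4, also fell in both genotypes, with log2 differences of -2.53, -1.50 and -1.54 in CaPS and -3.35, -2.34 and -2.31 in WT.

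RING1B rose at few member peaks. Of those named here, the peaks at Rbmxl2 (6512 bp), LOC106557447 (8891 bp) and Cenpv (4544 bp) were wider than any member. Their values therefore include signal outside the members. Rbmxl2, a testis RNA-binding protein gene (chr7:107207938-107214449), had 53.2 and 49.6 at day 0, 306 and 569.9 at day 6 and 470.3 and 739 at day 8 in CaPS, and 37.9 and 80.7 at day 0, 90.7 and 77.2 at day 6 and 189 and 139 at day 8 in WT (log2 difference of day 8 from ESC 3.50 in CaPS and 1.53 in WT, limma adjusted p = 2.78e-19 and 0.000176). Every day-8 value there was above every ESC value of its genotype. At Cenpv, whose product associates with centromeres, the differences were 2.61 in CaPS and 1.38 in WT, at the non-coding gene LOC106557447 3.13 and 1.66, and at Specc1 1.28 and 1.60, all with limma adjusted p under the threshold in both genotypes.

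**Figure D5:**
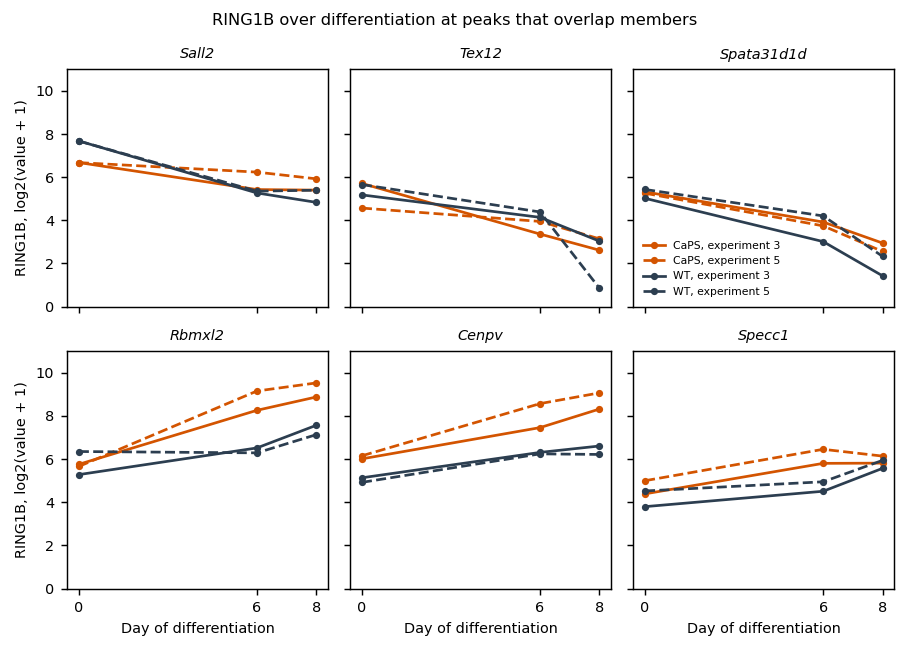
RING1B ChIP as log2(value + 1) (vertical) by day of differentiation (horizontal) at 6 peaks that overlap members, for CaPS (orange) and WT (dark), with experiment 3 as solid and experiment 5 as dashed lines. The upper 3 peaks are lower at day 8 than at day 0 in both genotypes and experiments, and the lower 3 are higher.

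At day 8, 655 members (24.4%) overlapped a RING1B peak of that day, against 53.3% of narrow intervals with H3K27me3; 420 members had 50% or more of their length covered. Over the 649 day-8 peaks that touched members, limma called no difference between CaPS and WT, nor did it over all 5393 peaks. At an unadjusted p under 0.05, 12 member peaks were lower and 28 higher, against 403 lower and 129 higher of all peaks. The median was 0.07 over member peaks and -0.37 over all. There were 2 libraries a genotype, and the member median was -0.25 without experiment 3 and 0.34 without experiment 4. With libraries brought to the same sum 4 member peaks were lower and 36 higher in CaPS, against 243 lower and 192 higher of all 5393 peaks.

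Some members overlapped an H3K27me3 peak called at day 8. There were 544 of them (20.2%), against 73.3% of narrow intervals with H3K27me3 in ESC and 52.9% of all intervals, and 286 of the 544 also overlapped a day-8 RING1B peak. Their ESC ratio was closer to the centre than that of the other members, with medians of -0.23 and -0.67, and 2.6% against 9.2% had been called low. Of the low-ratio members, 6.6% overlapped a day-8 H3K27me3 peak, against 21.4% of the others. In the 518 H3K27me3 peaks concerned, the authors' pooled values had a median of 41.0 in CaPS and 82.8 in WT, from 1 column a genotype and without a test. Gm16136 had 325 in CaPS and 659 in WT, Cdh3, which encodes P-cadherin, 163 and 631, and Stag3 11.1 and 24.6. Over the whole list of day-8 H3K27me3 peaks, the share of tags inside peaks was 8.2% in CaPS and 16.35% in WT. Less H3K27me3 at these sites and a smaller share of tags inside peaks cannot be told apart in such values.

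The width limit runs through a continuous range of sizes. Just under it were the members at Gm16136, Sall2 and St5 (3929, 3825 and 3751 bp), with centred WT ratios of -0.06, 0.21 and -0.04 (-0.14, 0.06 and -0.17 without experiment 2). Just over it, and also without H3K27me3, were intervals at L3mbtl3, a gene of a malignant-brain-tumour-domain protein, Mxi1, a MAX partner gene, and Sall1, with widths of 4264, 4492 and 4522 bp and ratios of 0.42, 0.34 and -0.29 (0.25, 0.12 and -0.22 without experiment 2).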

How the data were processed

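CBX7 and RING1B ChIP-seq, RING1B CUT&RUN and H3K27me3 peaks were read from annotated peak tables on mm10. Their values are signal in tags per 10000000 tags of a library, scaled by the authors with HOMER, per the file headers. Tools named by the submitters' processing notes are HOMER 4.10.4, SAMtools 1.9, Bowtie2 2.3.4.3 and cutadapt 1.14, with the builds mm10 and dm6. No source used here says whether reads of the Drosophila spike-in entered the totals. Per the series' design text, peaks were called over input or IgG and libraries compared within experiments done at the same time. Of the CUT&RUN columns, 2 matched no sample and were not used.

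Members were rows of the ESC RING1B ChIP table under 4000 bp that shared no base with an H3K27me3 interval. Members, gene lists and tests were chosen with earlier results of these data known. The main test was limma 3.58.1 with a mean-variance trend on log2(value + 1), experiment as block, over all peaks of a table, with Benjamini-Hochberg adjustment at 0.05; its prior degrees of freedom were infinite for CBX7 and RING1B between genotypes, so that a peak's variance came from the trend. The experiment number pairs libraries because the design text compares within experiments; same-numbered libraries correlated by 0.04 to 0.3 (CBX7) and -0.02 to 0.23 (RING1B) in their deviations from group means. Tags recovered from the values, whole for 100% of them within 0.1 read ends, were tested with edgeR 4.0.16 and DESeq2 1.42.0 as alternatives (R 4.3.3). Intervals and floors (3 tags, 95% exact) cover counting error only. Time-course counts use peaks that touch a member; named time-course, CUT&RUN and embryoid body peaks overlap no other ESC RING1B interval. The named members are the 5 highest in RING1B, the 5 at each end of the ratio, the 5 smallest p in each direction for each comparison, the 3 on each side of the width limit, and the 4 strongest of a list; further names were chosen after their values were seen, and 1 gene that the rule names is not reported here. The test was run first on simulated data.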

Additional observations from a re-analysis of the deposited data

How the results depend on the processing

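Of the 328 members with lower CBX7 in CaPS, the count was 1 without the replicate block, 3 with libraries brought to the same sum (median 0.39), 168 with DESeq2, 213 among the 2060 members at least 5 kb from H3K27me3 (fewer members), and between 119 and 294 without 1 experiment. RING1B lower calls, 0 in the main test, were 2 with a mean value of at least 10, 17 with DESeq2, and between 0 and 23 without 1 experiment. The 211 low ratios became 0 without the replicate block, 93 with a pseudocount of 5, and between 40 and 212 without 1 experiment. In the time course, CaPS lower calls were 136 without the replicate block and 74 with the same sum (median 0.01), and WT lower calls 225 and 45 (median 0.28). The WT median of -0.79 was -0.63 with a pseudocount of 5, -0.78 with a mean of at least 10, -0.77 for peaks that overlap no other ESC interval and -0.80 without either experiment, which leaves no residual degrees of freedom and so no test. At day 8 the same sum gave 4 lower calls, and members with 50% or more of their length in a day-8 RING1B peak numbered 420. Without 1 experiment the ratio ranged between -0.02 and 1.00 at Cbx2, -0.07 and 0.17 at Efs, and -1.47 and 0.11 at Terb1. The causes were not tested. Depth limits the CaPS libraries of experiment 2 most, where most members had under 3 CBX7 tags.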
